A study of Homo sapiens with 6 samples.

Results

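HAND2 binding was described from the 2 HAND2 libraries of a CUT&Tag experiment in SK-N-BE(2) cells, a human neuroblastoma line in which MYCN is amplified. In CUT&Tag an antibody tethers a transposase, which cuts and tags the DNA close to the bound protein. The libraries were HAND2 replicate 1 and HAND2 replicate 2, made with an anti-HAND2 antibody. Each was called by the authors against a library made with a non-specific IgG antibody, which has no peak list here. All 3 were of the same line, with no treatment or other genotype named in the labels, and nothing there says that the replicates were separate cultures. Members were all peaks of the HAND2 lists on chromosomes 1 to 22 and X: 30410 in replicate 1 and 33484 in replicate 2, or 63894 of the 118064 peaks in the 5 lists of the series. With 2 libraries of 1 group there is no comparison of conditions and no test: agreement between the libraries is described, and every interval covers counting error only.

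HAND2 belongs to the basic helix-loop-helix (bHLH) transcription factors and is named for its expression in the heart and in derivatives of the neural crest. It binds DNA as a dimer with E proteins such as TCF3, TCF4 and TCF12, at a short sequence called the E-box, CANNTG. In the mouse it is needed for the noradrenergic differentiation of sympathetic neurons, and in neuroblastoma it is counted among the core regulators of the adrenergic cell state.

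The sequences below are examples of HAND2 sites at gene starts. They are the 6 RefSeq promoters (GRCh38.p14, 250 bases before to 50 bases after the gene's start, printed along the gene's strand) with the highest fold among those that hold the summit of both replicates. Promoters were listed for 15811 of 19970 protein-coding genes. The other 4159, with POPDC2 (below) among them, could not enter this ranking or the motif shares that follow. Capitals mark every CANNTG, which reads as CANNTG on both strands. Fold is the peak caller's enrichment of the fragment pile-up at the summit over the local background, with 1 added to each. The pile-up is the number of fragments that cover a base.
MYLK3: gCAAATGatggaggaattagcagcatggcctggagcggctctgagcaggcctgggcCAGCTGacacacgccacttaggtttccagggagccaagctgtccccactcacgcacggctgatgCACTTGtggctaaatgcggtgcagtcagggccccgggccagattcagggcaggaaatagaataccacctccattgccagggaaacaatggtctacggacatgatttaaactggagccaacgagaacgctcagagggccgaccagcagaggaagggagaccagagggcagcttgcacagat
SLC25A45: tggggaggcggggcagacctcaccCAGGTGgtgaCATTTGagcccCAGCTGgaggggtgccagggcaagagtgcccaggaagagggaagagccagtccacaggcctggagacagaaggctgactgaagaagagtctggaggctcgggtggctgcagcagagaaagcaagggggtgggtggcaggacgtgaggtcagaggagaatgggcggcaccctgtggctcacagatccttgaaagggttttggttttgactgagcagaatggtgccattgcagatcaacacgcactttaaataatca
OLFML3: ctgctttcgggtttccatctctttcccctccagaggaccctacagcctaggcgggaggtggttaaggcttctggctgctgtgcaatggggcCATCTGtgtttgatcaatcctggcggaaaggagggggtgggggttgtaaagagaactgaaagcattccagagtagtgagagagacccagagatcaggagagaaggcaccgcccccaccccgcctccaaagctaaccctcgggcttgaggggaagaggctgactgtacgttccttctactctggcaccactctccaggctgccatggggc
CYTH1: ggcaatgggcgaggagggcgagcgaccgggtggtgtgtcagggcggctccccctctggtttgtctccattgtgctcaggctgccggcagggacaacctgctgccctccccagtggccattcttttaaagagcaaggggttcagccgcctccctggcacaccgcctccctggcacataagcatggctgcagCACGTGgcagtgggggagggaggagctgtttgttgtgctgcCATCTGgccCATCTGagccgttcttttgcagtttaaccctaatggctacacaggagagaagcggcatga
MAP2: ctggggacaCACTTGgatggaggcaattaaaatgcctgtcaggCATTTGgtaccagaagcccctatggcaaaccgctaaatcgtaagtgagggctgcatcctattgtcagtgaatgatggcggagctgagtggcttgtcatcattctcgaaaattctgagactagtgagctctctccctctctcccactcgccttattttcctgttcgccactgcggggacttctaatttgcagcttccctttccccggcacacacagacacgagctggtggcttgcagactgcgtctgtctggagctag
DBH: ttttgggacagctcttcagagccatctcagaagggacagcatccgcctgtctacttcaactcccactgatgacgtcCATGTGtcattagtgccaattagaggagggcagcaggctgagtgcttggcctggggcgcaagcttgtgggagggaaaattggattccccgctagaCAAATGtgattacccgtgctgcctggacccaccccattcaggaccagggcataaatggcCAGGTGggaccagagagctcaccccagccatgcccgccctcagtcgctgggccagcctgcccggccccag

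MYLK3, a kinase of cardiac myosin light chain (chr16:46763197-46763496, minus strand), had a fold of 19.6 (95% counting interval 15.9 to 23.9) in replicate 1 and 32.4 (27.5 to 37.9) in replicate 2. The summits lay 150 and 151 bases before the start, 22.5 and 23.5 bases from the middle of the nearest E-box, CACTTG. SLC25A45, of the mitochondrial carrier family (chr11:65382597-65382896, minus strand), had 18.9 (17.4 to 20.5) and 21.0 (19.5 to 22.5), with summits 148 and 147 bases before the start. OLFML3, a secreted olfactomedin-domain protein (chr1:113979224-113979523, plus strand), had 17.9 and 18.0, with both summits on 1 base, 26.5 bases from its only E-box, CATCTG. CYTH1, which activates ARF proteins (chr17:78716986-78717285, minus strand), had 14.8 and 18.4, with summits 154 and 220 bases before the start. MAP2, a neuronal microtubule-associated protein (chr2:209579357-209579656, plus strand), had 14.4 and 15.4. DBH, the enzyme that converts dopamine to noradrenaline (chr9:133636113-133636412, plus strand), had 13.3 (11.6 to 15.2) and 14.5 (12.9 to 16.4), with summits 235 and 237 bases before the start. Intervals of the replicates overlapped at SLC25A45 and DBH and did not at MYLK3, where replicate 2 was higher. The E-box nearest the summits was 22.5 bases away at MYLK3 and 162.5 bases away in replicate 2 at CYTH1.

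E-boxes were not more common in the promoters that held HAND2 summits. CANNTG occurred in 61.0% (56.9 to 65.0%, exact binomial) of the 585 promoters with summits of both replicates, against 65.1% of all 22011 promoters and 66.5% of the 16995 with no HAND2 peak. Each motif was searched on both strands. CATCTG or CAGATG stood in 14.4% (11.6 to 17.5%), against 12.2% of all promoters, CAGCTG in 17.3% against 18.0%, and CACGTG in 7.69% against 8.32%. These 3 are all forms of CANNTG. Of the motifs with no bHLH role, TGACAG or CTGTCA stood in 16.4% against 14.9%, and CCGGAA or TTCCGG in 25.1% against 21.1%. GC content was 63.8% in the promoters with summits of both replicates and 60.9% in all promoters. Its part in these shares was not tested. Promoters make up a small share of the HAND2 sites, and no genome sequence was used for the others.

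Most HAND2 sites were found by both libraries. Of replicate 1 peaks, 23874 (78.5%, 78.0 to 79.0%) shared 1 bp or more with a replicate 2 peak. Of replicate 2 peaks, 23983 (71.6%, 71.1 to 72.1%) overlapped a replicate 1 peak. They formed 23304 merged regions, of which 22181 consisted of 1 peak from each list, and left 6536 peaks in replicate 1 only and 9501 in replicate 2 only. The lists were close in scale. The median fold was 5.08 in replicate 1 and 4.67 in replicate 2, the median width 705 and 689 bp, and the median pile-up 34 and 41 fragments. Depth relative to the IgG library was 0.789 in replicate 1 and 0.932 in replicate 2, and 112 intervals were identical in the 2 lists, so neither list was a copy of the other.

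Recurrence followed the pile-up in both lists and the fold in replicate 2 alone. By pile-up, 25.9% of the lowest decile of replicate 1 peaks and 98.8% of the highest decile were found in replicate 2. For replicate 2 peaks the shares were 44.2 and 98.7%. By fold, replicate 2 peaks climbed from 37.1% (35.5 to 38.8%) in the weakest decile to 99.7% (99.5 to 99.9%) in the strongest. Replicate 1 peaks stood at 82.1% (80.7 to 83.4%) in the weakest decile, 67.1% (65.3 to 68.7%) in the sixth and 96.3% (95.6 to 97.0%) in the strongest. The weakest decile of replicate 1 had a median pile-up of 39 on a background of 20 IgG fragments, while the sixth had 24 on 4.54. IgG fragments are the local background divided by the value of 1 IgG fragment after scaling to the library. The part of the background in this pattern was not tested. Width behaved alike in both lists, with 45.2% of the narrowest and 99.8% of the broadest decile of replicate 1 peaks recurring, and 36.5 and 99.3% for replicate 2.

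**Figure D1:**
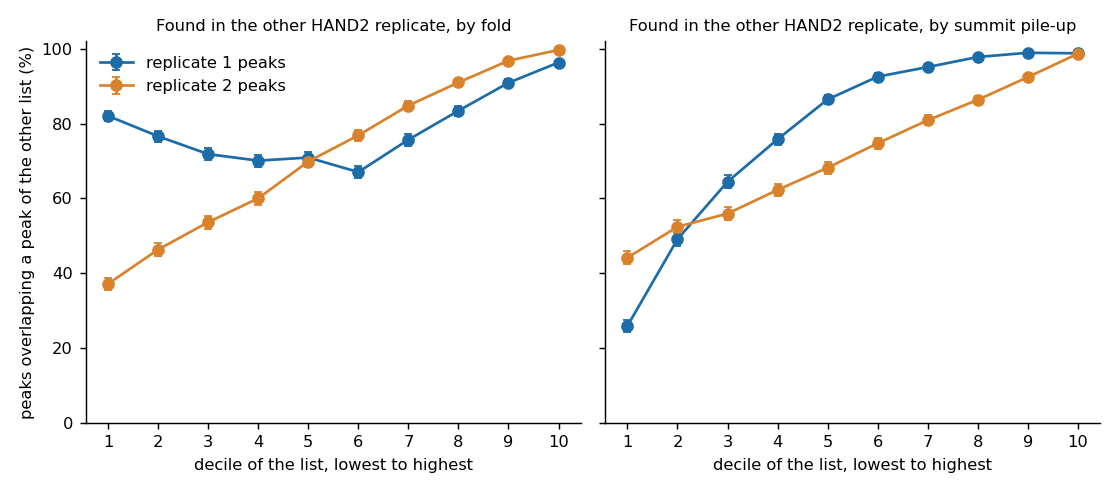
Share of HAND2 peaks (%, vertical axis) that overlap a peak of the other replicate, in deciles of each list by fold (left) and by summit pile-up (right), replicate 1 in blue and replicate 2 in orange, with exact 95% binomial intervals. By pile-up both curves climb, from 25.9 and 44.2% to 98.8 and 98.7%; by fold the replicate 1 curve dips to 67.1% in the sixth decile.

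At sites found by both libraries, fold agreed closely. Across 23309 pairs of peaks that were each other's strongest partner, Spearman's rho of fold was 0.866 and Pearson's r of log2 fold was 0.889. These describe pairs that share their control and their libraries, and carry no p. The median log2 ratio of fold, replicate 1 over replicate 2, was -0.08, with quartiles of -0.31 and 0.19. Pile-up agreed more closely (rho 0.918, medians of 42 and 50 fragments), −log10 q, the peak caller's adjusted significance, less (rho 0.833, medians of 15.7 and 19.2) and width least (rho 0.716, medians of 823 and 839 bp). The median log2 ratio of −log10 q was -0.35, in favour of the deeper replicate 2.

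Paired summits were a median of 48 bp apart (quartiles 11 and 127 bp), with 1490 pairs (6.39%) on the same base and 372 more than 1000 bp apart. Summits were within 50 bp in 51.3%, within 100 bp in 69.9% and within 250 bp in 86.6% of pairs. The distance shrank with strength, from a median of 76 bp in the weakest decile of pairs to 22 bp in the strongest. Width shifted too: the median log2 ratio of width, replicate 1 over replicate 2, was -0.17 in the weakest decile and 0.08 in the strongest. At the 1490 shared summit bases the background in replicate 1 was a median of 0.847 times that in replicate 2 (r of log2 values 0.999), which is the ratio of the depths. Both backgrounds come from the same IgG library, so the scaling fixed this in advance. It is no measure of agreement between the HAND2 libraries.

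The 15 strongest reproducible sites, ranked by the lower fold of the 2 replicates, lay away from gene starts. The first was inside ULK4, which encodes a pseudokinase of the unc-51-like family (chr3:41362519-41364399). Its fold was 145 in replicate 1 and 142 in replicate 2, from pile-ups of 582 and 636 fragments, with the summits 1 bp apart. The second lay 255846 bp from TRIQK, the nearest gene (chr8:92627172-92628473), with 161 and 136. The third lay 84018 bp from TLN2, a talin that links integrins to actin (chr15:62927675-62929300), with 165 and 135, the highest replicate 1 fold of the list. KCNG1, a subunit of voltage-gated potassium channels, was the gene nearest the fourth, at 106233 bp (chr20:51127778-51133250, 130 and 133). SEC61B, a subunit of the translocation channel of the endoplasmic reticulum, was nearest the fifth, at 181160 bp (chr9:99411181-99412154, 108 and 103). The next sites lay 72342 bp from ANKRD55 (104 and 99.2) and 20451 bp from EPSTI1 (107 and 99.1).

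The site inside TENM4, a teneurin of neuronal contacts (chr11:79119486-79120513), had 135 in replicate 1 and 92.5 in replicate 2. The sites inside SLC39A11, of a zinc transporter family, and ITGB5, an integrin beta subunit, had 96.7 and 91.7, and 97.0 and 91.0. ITPR1, a calcium release channel, held a site of 90.1 and 95.6 (chr3:4511599-4514406) and CENPP, a centromere protein, one of 86.5 and 88.0. The site inside BCAS3 had 119 and 89.4, and the gene start nearest to it was that of TBX2, a T-box factor, at 254526 bp. COL22A1, a collagen, was nearest to a site of 132 and 88.4 at 126085 bp, and CLPB, a mitochondrial disaggregase, held one of 99.4 and 84.2. The 16th site had a lower fold of 84.1, so the list ends at no gap.

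Of these 15 sites 8 lay inside protein-coding genes and 7 outside, 20451 to 255846 bp from the nearest gene. The smallest distance to a gene start was 15744 bp, at CENPP. Summits were within 10 bp of each other at 9 of the 15, and counting intervals overlapped at 10. Pile-ups of 222 to 953 fragments stood over at most 10.2 IgG fragments. At ANKRD55 and ITPR1 the background was 1.97 and 1.91 IgG fragments, the lowest of each list. The same values recurred at other sites, such as the start of TCF4. They are a floor of the background rather than fragments counted at the site, and the folds there rest on that floor. The intervals hold the background fixed, so they leave out its error, also at the sites where few IgG fragments were counted. Of the 15, 12 had the higher fold in replicate 1. KCNG1, ITPR1 and CENPP were the others, and their intervals overlapped. Being nearest does not make a gene a target, which these data do not address.

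**Figure D2:**
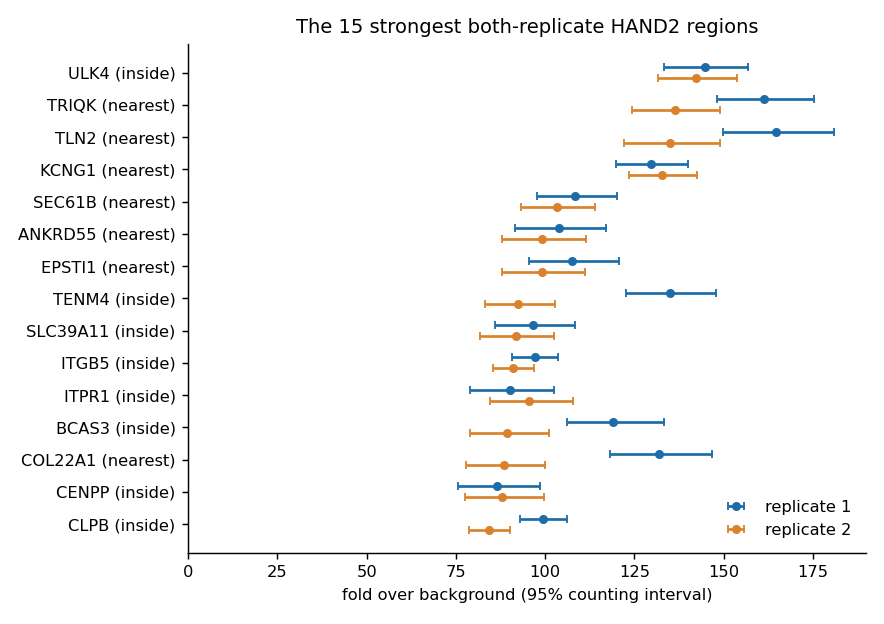
Fold over background (horizontal axis, linear) of the 15 strongest HAND2 regions in replicate 1 (blue) and replicate 2 (orange), with 95% counting intervals, named by the gene that holds the summit (inside) or the nearest gene. ULK4 has 145 and 142, while TENM4, BCAS3 and COL22A1 are higher in replicate 1 with intervals apart.

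Breadth picked out other places. The broadest site lay inside GSE1, which encodes a chromatin-associated coiled-coil protein (chr16:85353777-85387416). It held a peak of 18287 bp in replicate 1 and one of 33575 bp in replicate 2, with folds of 25.7 and 29.2 and both summits on the same base. The replicate 2 peak spans 3 peaks of replicate 1, of which a narrower one had the highest fold, 33.9, with its summit 23217 bp away. Of the 15 broadest sites, 7 lay inside GSE1. Along the gene's 507 kb there were 80 both-replicate regions, and peaks covered 347 kb in replicate 1 and 377 kb in replicate 2. GSE1 held 18 of the 100 broadest HAND2 regions and 0 of the 100 strongest. The median fold of its regions was 7.29 and 7.46, against 5.41 and 5.60 over all regions.

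**Figure D3:**
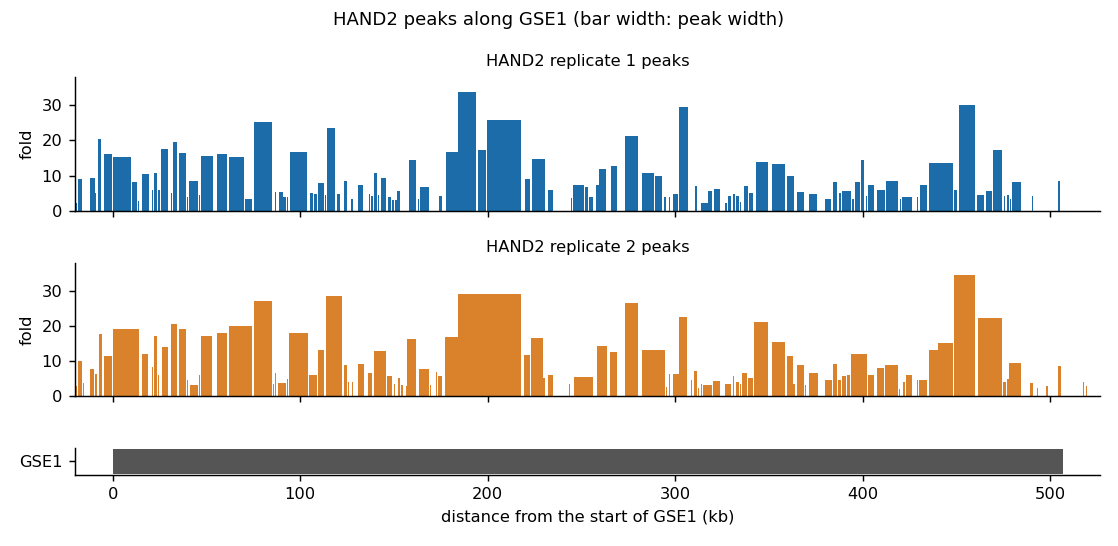
HAND2 peaks along GSE1, with distance from the gene's start in kb on the horizontal axis and fold (linear) as bar height; bar width is the peak's width, replicate 1 above and replicate 2 below. The broadest peak, 18287 bp in replicate 1 and 33575 bp in replicate 2, lies near 200 kb in both, and peaks cover 347 and 377 kb of the 507 kb gene.

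SCUBE1, a secreted protein with EGF repeats, held the second broadest site (chr22:43286597-43299543), 12606 and 12947 bp wide with folds of 17.5 and 20.9 and both summits on the same base. EEIG1 held the third (11474 and 14247 bp, folds 13.9 and 17.6). HMCN2, a hemicentin of the extracellular matrix, held a pair of sites. The stronger was 9421 and 12907 bp wide with folds of 55.5 and 56.1 (chr9:130421123-130434029). ZMIZ1, a coactivator related to the PIAS proteins, held one of 9142 and 9385 bp, BCL9L, a coactivator of beta-catenin, one of 7965 and 7987 bp, and ZFPM1, a cofactor of GATA factors, one of 8746 and 7829 bp. The fourth broadest was the only one outside a gene, 255206 bp from MYCN (chr2:16194604-16205248), 10645 and 10497 bp wide. There the pile-up was 10049 and 11096 fragments, the highest of each list, over 2105 and 2031 IgG fragments, and the fold was only 6.05 and 5.86. MYCN is amplified in this line, and copy number and binding cannot be told apart from a pile-up. The width at rank 15 was 7742 bp and at rank 16 it was 7733 bp.

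Fold and width were loosely related across the 23304 regions (rho 0.385, with both measures from the same libraries), and 6 regions stood among both the 100 strongest and the 100 broadest. Chromosome 16, which holds GSE1 and ZFPM1, had 27 of the 100 broadest and 6 of the 100 strongest. By number of regions per gene body, PLXNA4, a receptor for semaphorins, came first with 88. GSE1 followed with 80, PRKCE, a protein kinase C, with 74, MSI2, an RNA-binding protein of progenitor cells, with 64, and CAMTA1, a calmodulin-binding transcription activator, with 63. Per 100 kb these came to 16.8, 15.8, 13.8, 14.4 and 6.40 regions, against 1.12 over all gene bodies. At least 1 region lay in 4842 of 19970 protein-coding genes (24.2%), and at least 10 in 285. The widest regions of PLXNA4 and PRKCE were 4149 and 2508 bp in replicate 1 and 4203 and 2678 bp in replicate 2, far narrower than those of GSE1.

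The replicates disagreed at a minority of paired sites. Counting intervals of fold overlapped in 92.9% of pairs and were apart in 1655 (7.10%), of which replicate 1 was higher in 840 and replicate 2 in 815. Large gaps ran mostly one way. Over all 23309 pairs, with intervals apart or not, the fold was more than 2 times higher in replicate 1 at 610 and in replicate 2 at 161. It was more than 4 times higher at 41 and 1. With summits within 100 bp, where both libraries measured almost the same base, the counts were 305 and 51, and 25 and 0. Disagreement grew with strength, since intervals were apart in 3.52% of the weakest decile of pairs and 20.1% of the strongest, where the pile-ups are largest and the intervals narrowest.

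The largest gap was inside ALK, a receptor tyrosine kinase of neuroblasts (chr2:29650522-29651944). The fold was 98.9 (89.6 to 109) in replicate 1 and 7.41 (5.19 to 10.3) in replicate 2, from pile-ups of 410 and 34 fragments over backgrounds of 4 IgG fragments each, with summits 9 bp apart. The strongest other site of ALK, also inside the gene, had 80.3 and 55.5 (chr2:29767338-29769595). A site 170631 bp from TSHZ2, a zinc-finger gene, had 68.7 and 5.24 (chr20:52801127-52802105). Sites nearest RBM43, FRAS1, of the extracellular matrix, and MTPN had 45.4 and 4.31, 42.0 and 4.31, and 36.8 and 3.97. In all 5 the summits lay within 172 bp and the backgrounds were close, while the pile-ups differed.

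Sites with the higher fold in replicate 2 differed otherwise. Inside DPP6, an accessory subunit of potassium channels, the fold was 2.42 and 11.2 from pile-ups of 32 and 42 fragments, over 16 and 3.05 IgG fragments, at summits 774 bp apart. PLXNA4 held a pair with 3.82 and 13.3 at summits 1806 bp apart. The sites near SC5D, of cholesterol synthesis, and CCL17, a chemokine, had 3.44 and 11.9, and 2.96 and 9.87. ARHGAP26, a GTPase-activating protein, held one with 11.1 and 35.4 at summits 815 bp apart. In these 5 pairs the summits were 502 to 2086 bp apart, so each fold rests on its own background.

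**Figure D4:**
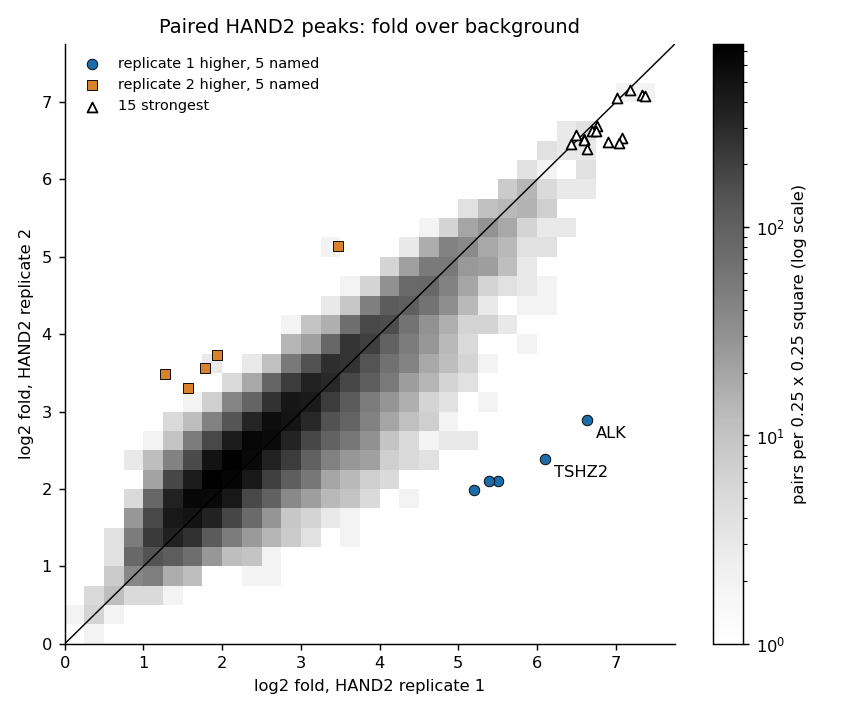
Paired HAND2 peaks by log2 fold in replicate 1 (horizontal) and replicate 2 (vertical), shaded by the number of pairs per square on a log scale, with the line of equality. The 15 strongest sites (triangles) lie close to the line, 5 pairs such as ALK (98.9 and 7.41 in fold) lie far below it, and the 5 pairs furthest above it (squares) lie closer to it.

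Peaks of 1 replicate only were narrow in both lists (median 469 bp in replicate 1 and 481 bp in replicate 2). They differed otherwise. Replicate 1-only peaks had a median fold of 4.65 from 17 fragments over 3 IgG fragments, and replicate 2-only peaks a fold of 3.36 from 27 fragments over 8 IgG fragments. Strong peaks without a partner came mostly from replicate 1. Above a fold of 10, 288 of 5130 replicate 1 peaks (5.61%, 4.9998 to 6.28%) had none, against 30 of 4661 in replicate 2 (0.644%, 0.435 to 0.918%). Above 15 the counts were 75 of 2397 and 0 of 2084, which allows a share of up to 0.177% (exact binomial).

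The strongest replicate 1-only peaks lay 35856 bp from RNF228 (chr2:222355639-222356280) and inside MACROD2 (chr20:14599422-14600064), each with a fold of 43.1 (35.4 to 51.9) from 109 fragments. UBASH3B and SLC38A1, a glutamine transporter, were nearest to peaks of 41.1 each, from 105 fragments, and ST8SIA2, which builds polysialic acid on neural cells, held one of 36.2. The strongest replicate 2-only peak lay 32262 bp from ETV6, an ETS repressor, with 14.4 (10.3 to 19.5) from 39 fragments. PLCB1, a phospholipase C, held one of 14.02, KLF7, a zinc-finger factor of neurons, had one of 13.97 at 2931 bp (chr2:207071047-207071512), ICOS one of 13.7 at 57371 bp, and MRPL23, of the mitochondrial ribosome, held one of 12.6. None of these 10 replicate-only peaks reached the fold of the 15 strongest shared sites.

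Sites at gene starts were mostly weak by fold. A summit lay within 1 kb of a protein-coding gene's start in 13.6% (13.1 to 13.998%) of both-replicate regions, 5.92% (5.36 to 6.52%) of replicate 1-only peaks and 19.2% (18.5 to 20.05%) of replicate 2-only peaks. Starts came from the promoter table and the gene's 5′ end for 15811 genes. Either end was used for the other 4159, whose strand was not given. Among both-replicate regions the share was 43.6% (41.6 to 45.6%) in the weakest decile by fold and 2.15% (1.60 to 2.82%) in the strongest. The background went with it, with a median of 20.9 IgG fragments in the weakest decile and 5.16 in the strongest, and its part in the result was not tested. By pile-up the share was 3.52% in the lowest decile, 22.1% in the seventh and 11.5% in the highest. Of the 100 strongest regions, 0 had the summit at a gene start, which allows up to 3.62%, and likewise 0 of the 100 with the highest pile-up and 4 of the 100 broadest.

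The gap between the replicate-only classes narrowed within classes of background. Under 5 IgG fragments, 1.79% of replicate 1-only and 2.89% of replicate 2-only peaks had the summit at a gene start. With 5 to under 15 fragments the shares were 9.97 and 12.3%, and with 15 or more they were 51.5 and 55.0%. The replicate 1-only peaks were mostly of the first class (4736 of 6536), unlike those of replicate 2 (2699 of 9501). At 15 or more fragments, peaks found by the other replicate had 34.1% in replicate 1 and 33.0% in replicate 2.

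**Figure D5:**
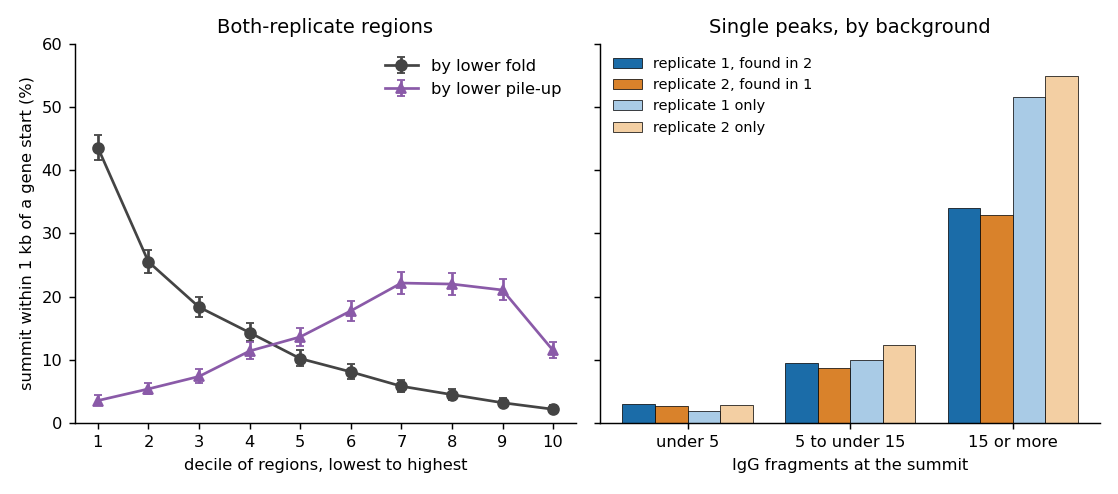
Share of summits within 1 kb of a gene start (%). Left, the 23304 both-replicate regions in deciles by lower fold (circles) and by lower pile-up (triangles), with exact 95% intervals, from 43.6% in the weakest to 2.15% in the strongest decile by fold; right, single peaks by IgG fragments at the summit, where the replicate 1-only and replicate 2-only peaks have 51.5 and 55.0% at 15 or more fragments.

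A both-replicate region reached within 1 kb of the start of 3763 of 19970 protein-coding genes, or 18.8%. Lists of genes are read against that share. Fold below is that of the strongest peak that reaches the window in each replicate, and its summit can lie outside the window. Over 3730 genes with a peak of each replicate there, the median lower fold was 3.20.

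Regulators of the adrenergic state were the list with the highest share, 18 of 22, with a median lower fold of 5.42. At a −log10 q of 5 or more they were 14, beside 3045 of all genes. There the E proteins and ID inhibitors, with 5 of 7, had the higher share. In the 20000 peaks of highest −log10 q per list the adrenergic count was 13, beside 2282 of all genes. TLX2, a homeobox factor, had 13.9 (11.7 to 16.5) and 10.8 (9.06 to 12.7). HAND1, the relative of HAND2 within its family, had 10.1 and 10.7 with summits 291 and 292 bp from the start. TCF4, an E protein partner, had 9.79 and 12.6, and TBX2 6.31 and 7.76. HAND2 itself had 3.85 (2.26 to 6.19) and 5.01 (3.47 to 7.01), from 15 and 32 fragments. MYCN had 1.94 and 1.89 over 2504 and 2462 IgG fragments. No region reached the start of EYA1, INSM1 or TFAP2B, although EYA1 had one of 20.6 and 19.7 and TFAP2B one of 10.9 and 9.98 in or within 50 kb of the gene.

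Genes of catecholamine synthesis, storage and uptake were reached in 9 of 16. SLC6A2, the noradrenaline transporter, had 77.1 (73.1 to 81.2) and 27.2 (25.3 to 29.3) in peaks that reach 1 of its ends. Their summits lay 3491 and 63 bp from the end, so these are different places. In the same merged region (chr16:55650040-55665695) the strongest replicate 2 peak had 95.5. The DBH peaks are those printed above. CYB561, an electron carrier of secretory vesicles, had 12.7 and 14.2, DDC, which makes dopamine, 6.96 and 7.11, and TH, the rate-limiting enzyme, 4.71 and 5.78 with both summits 190 bp from the end. A region in or within 50 kb of DDC had 54.3 and 43.5. MAOA, which degrades the amines, had a peak of 5.85 (4.96 to 6.85) in replicate 2 and none in replicate 1.

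Of 7 E proteins and their ID inhibitors 5 were reached: TCF4, which also stands in the adrenergic list, TCF12, ID1, ID2 and ID3. ID1 had 4.56 and 11.7 and ID2 had 3.87 and 7.91, with the summits of the replicates at different distances from the start. ID3 had 6.08 and 3.77, and TCF12 4.45 and 2.66. Of 15 receptors of sympathetic neuroblasts 6 were reached. GFRA3, a co-receptor of the GDNF family, had 15.4 (11.8 to 19.7) and 15.9 (12.4 to 20.02), and NGFR, the low-affinity neurotrophin receptor, 10.6 and 13.5. RET had 5.003 and 5.44, CNTFR, a cytokine receptor, 4.75 and 4.45, and ALK 2.94 and 3.96, far below the sites within its gene.

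The Notch list, which holds receptors and ligands besides the HES and HEY effectors, was reached in 2 of 15 (13.3%), against 18.8% of all genes. Both genes reached were effectors. HES1, a repressor of the bHLH family, had 10.5 and 11.6 and HEY1 had 3.96 and 2.49. HEYL, another effector, was not reached, although its strongest region in or within 50 kb of the gene had 28.5 and 26.3. Regulators and markers of the mesenchymal state were reached in 8 of 20, among them SNAI2 (8.66 and 9.49), VIM (6.38 and 7.92), FOSL1 (5.24 and 6.21), SNAI1 (4.60 and 4.79) and FOSL2 (3.41 and 4.60). At TWIST1, also among the 8, only the replicate 2 peak of the region (2.77) reached the window. Of 18 heart and limb genes, where HAND2 is known from mouse development, 6 were reached. POPDC2, a membrane protein of heart muscle, stood out with 48.7 (41.4 to 56.9) and 42.5 (36.0 to 49.9), summits 30 and 49 bp from its end and at most 2.79 IgG fragments. GATA6 had 6.63 and 5.30, TBX20 5.66 and 5.24, GREM1 5.57 and 3.59, and MB, myoglobin, 3.05 and 8.35 at summits 56 and 1448 bp from the start. MYH6, TBX5 and SHH had no region in or within 50 kb of the gene. Lists of other cell types gave 1 of 12 for liver, which was TAT (4.18 and 4.50), and 0 of 12 for blood cells. In replicate 2 alone 2 liver genes were reached, against 27.9% of all genes, and in replicate 1 alone 3, against 20.4% of all genes.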

How the data were processed

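CUT&Tag peak lists of 2 HAND2 libraries were analysed. The submitters' processing notes name bcl2fastq 2.17, MACS3 3.0.0a6 and Bowtie2, whose version is not given there, and the hg38 build. Peaks were called per replicate against IgG, as the deposited files show. The authors deposited, per peak, the fold (a ratio), −log10 p and −log10 q, and a score equal to 10 times the −log10 q, as an integer. In 3 lists a further deposited column, of another kind, was not used. The lowest −log10 q was 2.00 in both lists.

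The whole pile-up that gives both the deposited fold and p (relative tolerance 5e-05) was found for 100% of peaks. Counting intervals of fold take the exact 95% Poisson interval of that pile-up over a fixed background. They cover the counting error of the pile-up only, not that of the background, and PCR copies may be counted as fragments. The background unit, 1 scaled IgG fragment, gave the depth relative to IgG. Backgrounds came out whole within 0.03 for 69.1 and 70.0% of peaks of replicates 1 and 2. Coordinates are 1-based. Regions, pairs, gene windows and motifs were computed in Python 3.11.15 with numpy 2.4.6, pandas 2.3.3 and scipy 1.17.1, and checked on simulated data. Genes and promoters are RefSeq's for GRCh38.p14, without exons or UTRs. Shares have exact Clopper-Pearson intervals.

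The members and the 9 gene lists were chosen with earlier results of these data known. Named were the 15 strongest and 15 broadest regions by the lower replicate value, the 5 strongest peaks of each replicate without a partner, the 5 pairs each way with the largest fold ratio, the 5 genes with most regions, and the list members with the highest fold. HAND2, MYCN, ALK, MAOA and the list genes without a region were named besides. Some list members are not reported here. Alternatives were other overlap rules, thresholds, windows, pairings and rankings, and each replicate left out.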

Additional observations from a re-analysis of the deposited data

How the results depend on the processing

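Of 116 alternative values, 84 stayed within a set limit and 32 moved further. The cause was not tested where the construction does not show it. The limit was the counting interval for shares, 0.02 for rho and 1.5 times for counts. For medians of pairs it was the standard deviation over single pairs, such as 0.44 for the log2 ratio of fold. A median can hardly move that far, so those values say little about stability. Counts within the limit include 3763 genes against 5563 with replicate 1 left out. The share of replicate 1 peaks that recur, 78.5%, was 77.4% with an overlap of 50% of the shorter peak, 67.3% with summits within 250 bp, 80.3% at a −log10 q of 5 or more and 76.6% once peaks over 30 or more IgG fragments were left out. For replicate 2, 71.6% became 70.5, 61.1, 72.6 and 70.8% in the same order, and 79.1% in the 20000 peaks of highest −log10 q per list. Those 20000 peaks gave 15462 regions, a rho of fold of 0.895, 2282 genes and 1 Notch effector. The rho was 0.902 for pairs with summits within 100 bp, an alternative chosen after seeing the data.

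The share of regions at gene starts, 13.6%, was 12.4% at a −log10 q of 5 or more, 10.5% without peaks of 30 or more IgG fragments, 11.05% with a window of 500 bp, 23.2% with 5 kb and 12.2% with either end of every gene (chosen after seeing the data). For replicate 1-only peaks it was 4.64% at 500 bp and 13.2% at 5 kb. For replicate 2-only peaks it was 20.4% at a −log10 q of 5 or more, 16.1% at 500 bp, 30.8% at 5 kb and 17.9% with either end. In each of these settings that were run for all 3, replicate 1-only peaks had the lowest share and replicate 2-only peaks the highest. A window of 500 bp left 1 Notch effector, and blood cell genes became 2 at 5 kb and 1 with either end.

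With either replicate left out, 12.003 to 15.2% of single-library peaks lay at gene starts, 4077 to 5563 genes and 2 to 3 liver genes were reached. No paired analysis was possible because the results come from no test and the IgG sample shares no replicate number with HAND2. Pile-ups of 8 fragments upward limit the weak sites, where a missing partner does not show that HAND2 is absent.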

Other observations

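The chromosomes with the highest and lowest recurrence changed places between the 2 lists. Of replicate 1 peaks, 87.7% on chromosome 19 and 72.6% on chromosome 5 overlapped a replicate 2 peak. Of replicate 2 peaks, 63.1% on chromosome 19 and 77.6% on chromosome 5 overlapped a replicate 1 peak. These are the highest and lowest shares of each list over chromosomes 1 to 22 and X. The shares depend on how many peaks each list holds. Chromosome 19 had 822 and 1127 peaks for 707 both-replicate regions, and chromosome 5 had 1647 and 1568 for 1179. Chromosome 5 was the only one with the higher share in replicate 2. The difference varied over the others, from chromosome 22 with 81.5 and 63.8% and chromosome 16 with 83.2 and 68.1% to chromosome 4 with 73.0 and 72.5%.

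Peaks of 1 replicate only often lay close to a shared site: 37.2% of replicate 1-only and 38.7% of replicate 2-only peaks were within 5 kb of a both-replicate region, and 20.7 and 17.5% were more than 50 kb from any. In promoters, CCGGAA or TTCCGG stood in 34.2% (25.8 to 43.4%) of the 120 with the summit of a replicate 1-only peak and 32.2% (28.1 to 36.4%) of the 510 with that of a replicate 2-only peak, against 25.1% of the 585 with summits of both replicates.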
